A study of Mus musculus with 12 samples.

Results

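The 8 genes described here encode cytokines that CD4 T cells are known to make soon after the T cell receptor is engaged. They are Il2, Lta, Tnf, Lif, Osm, Csf2, Il3 and Tgfb1, taken as every array probe annotated to those symbols. These 8 genes, of 19057 named on the array, had 15 probes. Il2, Lta, Tnf, Lif, Osm and Tgfb1 had a detected probe and were tested among 9566 genes, while Csf2 and Il3 were not detected on any array.

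The cells were DO11.10 CD4 T cells, which carry a transgenic T cell receptor for a peptide of ovalbumin. They were CFSE-labelled as naive cells, transferred into Balb/c hosts that were then immunized with the OVA peptide in CFA, and taken from lymph node after 66 to 72 h. Sorting on dilution of the dye gave D3, D4, D6 and D8 cells, which by the labels had divided 2, 3, 5 and 7 times, with 3 arrays per division from 3 independent experiments. All 4 divisions thus share the kind of donor cells, host, antigen, adjuvant and the harvest window of 66 to 72 h, and were sorted by the number of divisions. What else differed between cells that divided more or less is not given in the labels. The design text ascribes ready transition to memory to D4 and a reduced potential to D3, D6 and D8. The labels do not say whether cells of several hosts were pooled, or whether the sort selected cells for the transgenic receptor.

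IL-2, encoded by Il2, drives T cell growth through a receptor that signals to STAT5. Lymphotoxin alpha (Lta) and TNF (Tnf) belong to the TNF family and act through receptors that reach NF-kappaB. LIF and oncostatin M (Osm) are related cytokines that signal through the shared chain gp130 and STAT3, and GM-CSF (Csf2) and IL-3 act on myeloid and other blood cells through a shared beta chain. TGF-beta 1 (Tgfb1) is made as a latent protein and restrains T cells once activated. In the mouse genome Lta lies beside Tnf, Lif beside Osm and Il3 beside Csf2.

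The promoters of Il2, Tnf and Lif are shown because these genes gave 3 different outcomes in D8 relative to D3, a fall, no called change and a rise. Each window is the 250 bases before the annotated start in RefSeq, build GRCm38.p6, on the strand of the gene. They lie at chr3:37125955-37126204 (minus strand), chr17:35202008-35202257 (minus strand) and chr11:4257318-4257567 (plus strand). Capitals mark matches on either strand to the NFAT core GGAAA, the AP-1 motif TGANTCA, the NF-kappaB consensus motif, the STAT motif TTCNNNGAA and the TATA box TATAAA.
Il2: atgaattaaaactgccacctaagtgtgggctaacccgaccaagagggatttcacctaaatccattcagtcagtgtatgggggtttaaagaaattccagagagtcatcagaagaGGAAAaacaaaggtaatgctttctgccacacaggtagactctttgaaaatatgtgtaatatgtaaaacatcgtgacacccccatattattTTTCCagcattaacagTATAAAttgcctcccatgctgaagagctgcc
Tnf: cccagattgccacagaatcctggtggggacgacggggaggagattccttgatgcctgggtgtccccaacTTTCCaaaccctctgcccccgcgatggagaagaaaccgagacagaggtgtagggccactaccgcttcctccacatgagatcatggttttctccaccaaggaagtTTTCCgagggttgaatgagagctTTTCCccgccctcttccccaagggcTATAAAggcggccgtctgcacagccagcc
Lif: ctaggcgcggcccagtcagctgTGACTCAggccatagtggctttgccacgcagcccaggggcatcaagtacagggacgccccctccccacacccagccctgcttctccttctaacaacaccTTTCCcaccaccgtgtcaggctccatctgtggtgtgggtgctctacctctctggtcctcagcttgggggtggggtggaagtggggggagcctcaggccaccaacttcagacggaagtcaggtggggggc

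Of 32851 RefSeq windows of this length, 55.6% held the NFAT core, 6.75% the AP-1 motif, 3.9% the NF-kappaB motif, 7.02% the STAT motif and 12.4% the TATA box. The Il2 window held the NFAT core at -137 and -47 and a TATA box at -31, counted from the start to the first base of the match on the strand of the gene. The Tnf window held the NFAT core at -181, -77 and -54 and a TATA box at -29. The Lif window held the AP-1 motif at -228 and the NFAT core at -129. The NF-kappaB consensus, which can hold an NFAT core within it, and the STAT motif had no match in these 3 windows, and no matches overlapped. Windows were matched for 7 of the 8 genes, all but Osm. Of the Lta window, 227 of 250 bases lay inside the annotated gene, so it is not shown as a promoter. The matches are a description of these letters and were not tied to any change in expression.

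Median probe intensity was between 41.6 and 51.2 on the 12 arrays, and 15563 to 16666 of 45281 probes were detected. Values below are log2 normalised intensities of the brightest detected probe of a gene, differences are log2 differences ± standard error, and a gene was called when its limma p-value, adjusted over all 9566 genes by the Benjamini-Hochberg method, was under 0.05. Experiment 2 stood apart for several of the cytokines, as given below. In sorted populations a lower level can mean fewer cells making an mRNA or less of it per cell, and these cannot be told apart here.

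Among the 6 cytokines tested, Lif rose and Il2 and Lta fell in D8 relative to D3, while Tnf, Osm and Tgfb1 were not called. Over all genes 36.5% were called in that comparison, 17.6% higher and 18.9% lower, so a count of 3 in 6 is to be read beside a background in which changes were frequent. The median difference of the 6 cytokines was -0.02, against 3.64e-05 over all genes. The same 3 genes were called in D8 relative to D4, with Lif higher and Il2 and Lta lower, where the background was 28.5%.

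**Figure D1:**
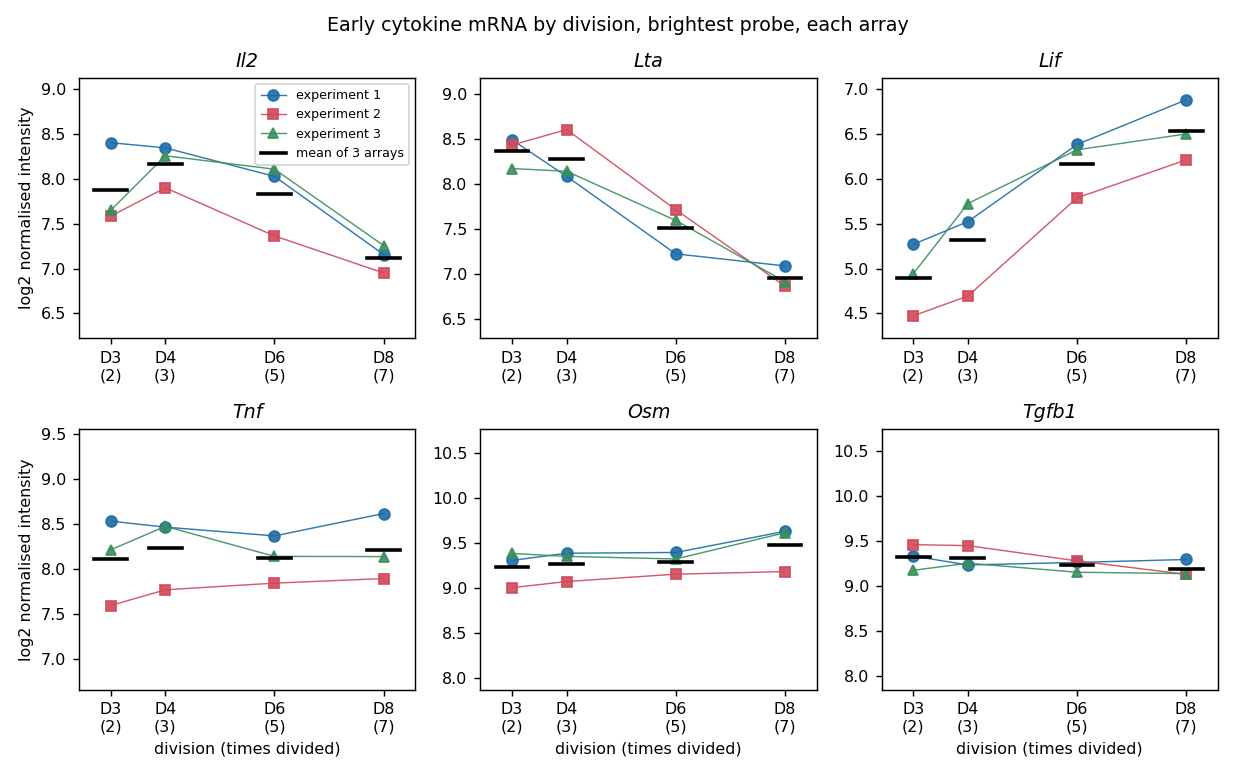
Log2 normalised intensity (vertical axes, each spanning the same range) of 6 cytokine genes in D3, D4, D6 and D8 cells, spaced by the times divided (horizontal axes). Points are single arrays joined within an experiment and black bars are means of 3 arrays. Il2 and Lta are lowest and Lif is highest in D8, while the red squares of experiment 2 lie below the others for Tnf, Lif, Osm and Il2.

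Lta, the lymphotoxin gene, fell the most of the 6 tested. In experiments 1, 2 and 3 its log2 intensity was 8.49, 8.44 and 8.17 in D3, 8.09, 8.61 and 8.14 in D4, 7.22, 7.72 and 7.60 in D6, and 7.09, 6.87 and 6.92 in D8. The D3 and D4 arrays overlapped, all D6 arrays lay below all D4 arrays, and all D8 arrays lay below all D6 arrays. The mean was 6.96 ± 0.12 in D8, against 8.37 ± 0.17 in D3 (SD, n = 3 each), a difference of -1.41 ± 0.16 that makes Lta 2.66-fold lower in D8 (limma, adjusted p = 1.08e-05). Within the experiments the D8 minus D3 differences were -1.40, -1.57 and -1.26. A second Lta probe gave -1.35 ± 0.13 in D8 relative to D3 (limma, adjusted p = 1.88e-06 over all probes).

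Of the 6 cytokines, Lta alone was called in D6 relative to D4 in the fit without the experiment as a block. With the block Lif was called too (limma, adjusted p = 0.00105, with 9.92% of all genes called). This step separates the division with high memory potential from a later one, and 4.27% of genes were called in it without the block. The Lta difference was -0.77 ± 0.16 (limma, adjusted p = 0.0144), and Lta was lower in 3 of 3 experiments. This call was lost without the D4 array of experiment 2 (adjusted p = 0.0572) and without the D6 array of experiment 1 (0.0643), and its second probe gave -0.92 ± 0.13 with an adjusted p of 0.000998 over all probes. Without the block, Lta was again the only cytokine called in D8 relative to D6, at -0.56 ± 0.16 (limma, adjusted p = 0.0430), where the background was 9.31%. That call was lost in 7 of the 12 fits that left out a single array, with D3-1, D3-2, D6-2, D6-3, D8-1, D8-2 or D8-3 omitted and adjusted p-values between 0.0509 and 0.1662. The second probe of Lta gave -0.41 ± 0.13 there and was not called (limma, adjusted p = 0.0645 over all probes).

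Il2, the T cell growth factor gene, was highest in D4 by mean and lowest in D8. Its values were 8.40, 7.58 and 7.65 in D3, 8.34, 7.90 and 8.26 in D4, 8.03, 7.36 and 8.11 in D6, and 7.16, 6.95 and 7.26 in D8. The D3, D4 and D6 arrays overlapped, and every D8 array lay below every array of the earlier divisions. Il2 averaged 7.12 ± 0.16 in D8, against 8.17 ± 0.24 in D4 (SD, n = 3 each), and was 2.06-fold lower (-1.05 ± 0.22, limma, adjusted p = 0.00292).

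Relative to D3, Il2 differed by -0.76 ± 0.22 in D8 (limma, adjusted p = 0.0164), with -1.25, -0.63 and -0.39 in experiments 1, 2 and 3. With 1 array per division and experiment, these values cannot be told apart from the spread between arrays. The call was lost without the D3 array of experiment 1 (-0.50, adjusted p = 0.0822) and without the D8 array of experiment 2 (0.0619). It was also lost with the authors' processed values (0.0531) and with no filter on detection (0.0614). In D6, Il2 differed from D3 by -0.05 ± 0.22 and from D4 by -0.33 ± 0.22, neither of which was called (limma, adjusted p = 0.922 and 0.492). In D8 relative to D6 it differed by -0.71 ± 0.22 and was lower in 3 of 3 experiments, which was not called (limma, adjusted p = 0.0639) but passed with the experiment as a block (0.00645, with 17.4% of all genes called), without D3-1 (0.0287) and without D6-2 (0.0244).

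Lif, the leukemia inhibitory factor gene, was the only one of the 6 cytokines called higher in D8 relative to D3 without the experiment as a block. Its values were 5.27, 4.47 and 4.94 in D3, 5.52, 4.69 and 5.72 in D4, 6.38, 5.79 and 6.32 in D6, and 6.88, 6.21 and 6.50 in D8. The D3 and D4 arrays overlapped, every D6 array lay above every D4 array, and the D8 and D6 arrays overlapped. The mean was 6.53 ± 0.34 in D8, against 4.89 ± 0.40 in D3 (SD, n = 3 each), a 3.10-fold difference (1.63 ± 0.27, limma, adjusted p = 0.000275). Its size depended on the background correction, at 0.88 with normexp and an offset of 50 and 2.10 with the authors' processed values, and it was called under both. Within experiments 1, 2 and 3 it was 1.61, 1.74 and 1.56. Each value rests on 1 array per division, so whether the size differed between experiments was not tested. The probe was not detected on the D3 array of experiment 2, so the value of 1.74 starts from a background level.

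In D6 relative to D3, Lif rose by 1.27 ± 0.27 (limma, adjusted p = 0.00579) and Lta fell by 0.86 ± 0.16 on the log2 scale (adjusted p = 0.00262), the only 2 of the cytokines called, against a background of 14.8%. In D6 relative to D4, Lif differed by 0.85 ± 0.27 and was higher in 3 of 3 experiments, which was not called (limma, adjusted p = 0.0994) but passed with the experiment as a block (0.00105, with 9.92% of all genes called). In D8 relative to D6 its brightest probe gave 0.37 ± 0.27 (limma, adjusted p = 0.452), while its second probe gave 0.76 ± 0.21 (adjusted p = 0.0421 over all probes). The probes of Lif thus differed in whether the last step was called.

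Of the 5 Lif probes, 2 were annotated to a transcript record on which the signal was detected, on 2 of 3 arrays in D3, 2 of 3 in D4 and all 3 in D6 and D8. The other 3 probes, annotated to another Lif transcript record, were detected on no array. Intensity before normalisation of the brightest Lif probe was 51.0 on the D3 array of experiment 2, close to the array median, and reached 154 on the D8 array of experiment 1. The Lif differences therefore start near the background, where the offset of the background correction makes a log2 difference smaller than the underlying one.

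**Figure D2:**
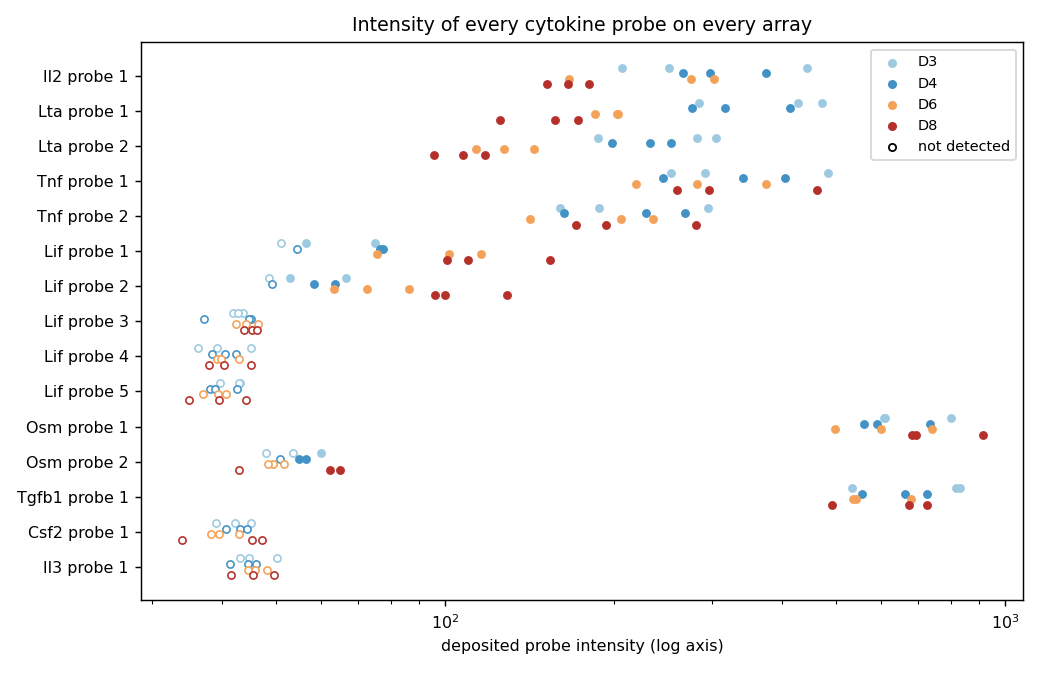
Deposited intensity of each of the 15 cytokine probes on each array (log horizontal axis), with colours for D3, D4, D6 and D8 and open circles for arrays on which the probe was not detected. The probes of Csf2 and Il3 and 3 of the 5 Lif probes lie between 33.8 and 50.1 and are open on all 12 arrays.

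Tnf, which encodes TNF, was made at a detected level in every division and was not called in any comparison of divisions. Its values were 8.53, 7.59 and 8.22 in D3, 8.47, 7.77 and 8.48 in D4, 8.37, 7.84 and 8.14 in D6, and 8.62, 7.89 and 8.14 in D8. All 4 divisions overlapped. The difference of D8 from D3 was 0.10 ± 0.25, with a 95% interval of -0.44 to 0.65 (limma, adjusted p = 0.789). With the experiment as a block the standard error was 0.11 and the difference was not called (0.496). A second Tnf probe gave 0.16 ± 0.28 (limma, adjusted p = 0.708 over all probes). Tnf and its neighbour Lta thus had different calls, but the difference between the 2 genes was not tested.

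Osm, the oncostatin M gene beside Lif, was 9.30, 9.0 and 9.38 in D3, 9.39, 9.07 and 9.35 in D4, 9.39, 9.15 and 9.32 in D6, and 9.63, 9.18 and 9.61 in D8. The divisions overlapped, although D8 was higher than D3 in 3 of 3 experiments, by 0.32, 0.18 and 0.23. The difference was 0.24 ± 0.15 and was not called (limma, adjusted p = 0.219), and it was called with the experiment as a block (0.0360), when 44.1% of all genes were called. A second Osm probe was detected on 5 of 12 arrays.

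Tgfb1, which encodes TGF-beta 1, was 9.33, 9.46 and 9.18 in D3, 9.23, 9.45 and 9.25 in D4, 9.26, 9.28 and 9.15 in D6, and 9.30, 9.13 and 9.14 in D8. The 4 divisions overlapped, and the means of D8 and D3 were 9.19 ± 0.09 and 9.32 ± 0.14 (SD, n = 3 each). The difference of -0.14 ± 0.11 was not called (limma, adjusted p = 0.368, 95% interval -0.37 to 0.10).

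Csf2, encoding GM-CSF, and Il3, encoding IL-3, were not well above background on any of the 12 arrays. The Csf2 probe had intensities of 33.8 to 47.2 with a lowest detection p-value of 0.261, and the Il3 probe had 41.3 to 50.1 with a lowest detection p-value of 0.127. Each gene had 1 probe, and no difference between divisions is given for them.

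**Figure D3:**
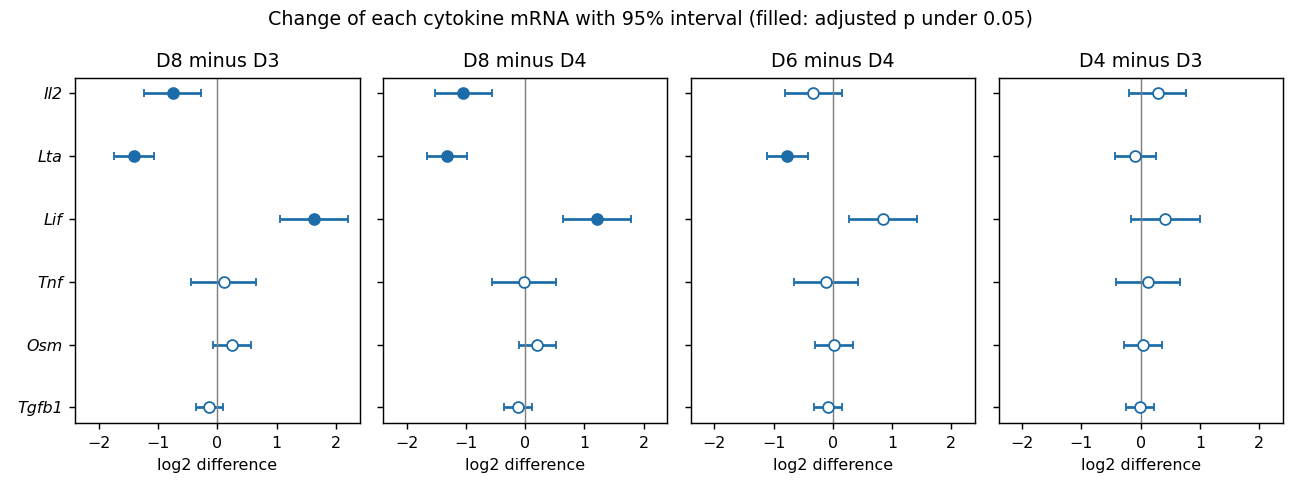
Log2 difference between 2 divisions (horizontal axes) for 6 cytokine genes, with 95% intervals from the limma fit over 12 arrays. Filled points have an adjusted p under 0.05. Lta and Il2 lie left of 0 and Lif right of 0 in D8 minus D3 and D8 minus D4, Lta alone is filled in D6 minus D4, and no point is filled in D4 minus D3.

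The first step, D4 relative to D3, gave no call among the 6 cytokines (limma, 656 of 9566 genes at an unadjusted p under 0.05), where 0.0105% of genes were called. The differences were 0.42 ± 0.27 for Lif and 0.29 ± 0.22 for Il2, and the others lay between -0.09 and 0.12. Set against the mean of D3, D6 and D8, D4 cells had more Lta, by 0.67 ± 0.13 (limma, adjusted p = 0.00776), beside a background of 5.92%. The D4 and D3 arrays of Lta overlapped, as given above, and its mean was higher in D3 (8.37) than in D4 (8.28). The call was lost without the D4 array of experiment 2 (adjusted p = 0.0624).

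In the same contrast Il2 was 0.56 ± 0.18 and Lif -0.55 ± 0.22, neither of them called (limma, adjusted p = 0.0963 and 0.172), and both passed with the experiment as a block (0.0111 and 0.00415, with 12.6% of all genes called). Il2 also passed without D3-1 (0.0285). By its means Lif was lower still in D3 (4.89) than in D4 (5.31), so a low level of Lif was not particular to D4. Fitted against the times divided, the 3 genes gave slopes per division of -0.30 ± 0.03 for Lta, -0.17 ± 0.05 for Il2 and 0.33 ± 0.05 for Lif (limma, adjusted p = 8.12e-07, 0.0098 and 4.53e-05), and 39.8% of all genes were called on this trend. With the experiment as a block Osm was called on it too (0.0347), as were 44.7% of all genes. By their means Il2 fell mainly after D6 and Lta and Lif moved mainly before D8, but a test of the step from D6 to D8 against the step from D4 to D6, chosen after the data were seen, called none of the 6 cytokines (limma, adjusted p between 0.896 and 0.985), and 0.0314% of all genes.

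The cytokines differed between experiments as well as between divisions. In a limma F test between the 3 experiments, chosen after the data were seen, Tnf (adjusted p = 0.00409), Lif (0.00526), Osm (0.0256) and Il2 (0.0467) were called, where 9.93% of all genes were called. Each of these 4 was lowest in experiment 2 in 4 of 4 divisions. Lta (0.431) and Tgfb1 (0.382) were not called.

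For Tnf the experiment means spanned 0.72 and the division means 0.12, and for Osm they spanned 0.33 and 0.24. For Lif the experiment means spanned 0.72 and the division means 1.63, for Il2 0.53 and 1.05, for Lta 0.20 and 1.41, and for Tgfb1 0.15 and 0.14. The division means thus spanned more for Lif, Il2 and Lta, the experiment means for Tnf and Osm, and both about the same for Tgfb1. Median intensities were 48.9 to 51.2 in experiment 1, 45.6 to 50.8 in experiment 2 and 41.6 to 45.7 in experiment 3, so experiment 2 was not the dimmest. What differed between the experiments was not tested.

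Without experiment 2, an alternative chosen after the data were seen that leaves 2 arrays a division, Lif, Il2 and Lta remained called in D8 relative to D3. Their differences were 1.58 ± 0.17, -0.82 ± 0.21 and -1.33 ± 0.17 (limma, adjusted p = 0.000334, 0.0230 and 0.000744), where 23.8% of all genes were called. The calls of Lta in D6 relative to D4, in D8 relative to D6 and in D4 relative to the mean of the others were lost (adjusted p = 0.104, 0.269 and 0.109), where 1.2%, 2.15% and 1.25% of all genes were called. Tnf, Osm and Tgfb1 were not called in any comparison without experiment 2 either.

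After the division means were removed, Tnf and Lif correlated at 0.96 over the 12 arrays, Tnf and Osm at 0.86, Lif and Osm at 0.84, Il2 and Lif at 0.79, Il2 and Tnf at 0.75 and Il2 and Osm at 0.61. Among the 9565 other genes, Tnf ranked 2 by correlation with Lif, and Lif ranked 6 by correlation with Tnf. Lta and Tgfb1 correlated with each other at 0.65, and at -0.27 to -0.47 with the other 4. These values describe arrays that share 3 experiments and carry no test. Of 17 promoter-binding factors tested, 8 were called between experiments, against 9.93% of all genes. They were Rel, Fos, Junb, Jun, Jund, Egr2, Egr3 and Gata3, and 2 of those were lowest in experiment 2. The gp130 and STAT3 response list given below had 4 of 8 called (Socs3, Bcl3, Junb and Fos), and Junb and Fos are in both lists. Cd8b1, Klrd1, Kit, Hba-a1 and Pecam1, each the 1 tested marker of another cell type, were called, as was Csf1r, 1 of 2 myeloid markers. Every other list had 0 to 2 genes called.

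**Figure D4:**
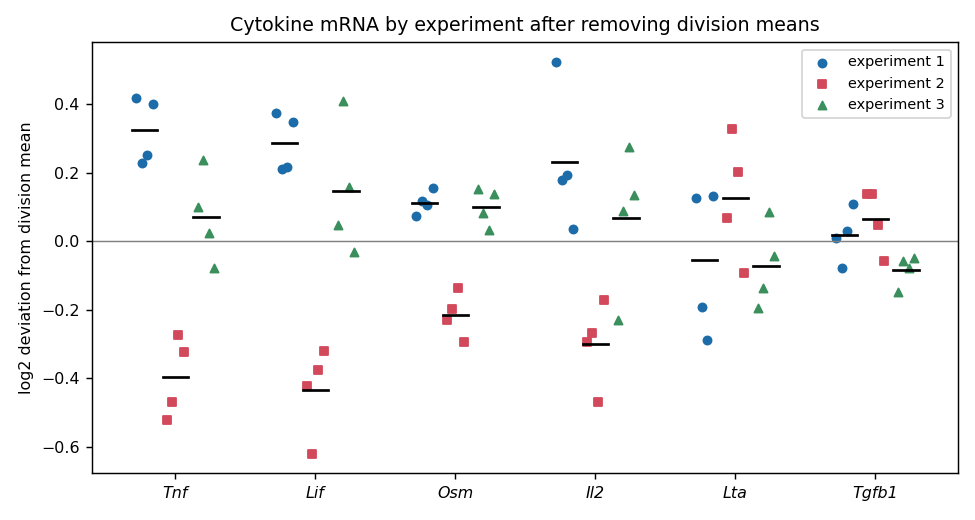
Deviation of each array from its division mean in log2 units (vertical axis) for 6 cytokine genes, by experiment, with black bars for the mean of 4 arrays. All 4 arrays of experiment 2 lie below 0 for Tnf, Lif, Osm and Il2, but not for Lta or Tgfb1.

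Over the 12 arrays the genes whose values followed Il2 most closely were Ikzf2 (Pearson r = 0.917), Dctd (0.911) and Gpr137 (0.898), and the most opposed was Nudcd3 (-0.947). For Lta they were Cd99l2 (0.969), Csf2ra (0.969) and Itga9 (0.967), with Cdkn2d most opposed (-0.975). Csf2ra encodes the alpha chain of the GM-CSF receptor, so a receptor gene for another of these cytokines was among the closest to Lta.

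For Lif they were Smc1a (0.967), Cdk5r1 (0.965) and Pon2 (0.962), and Insl6 was most opposed (-0.980). For Tnf they were Igf2bp3 (0.927), Cdk4 (0.920) and Rnf225 (0.894), with Wasf2 most opposed (-0.916). For Osm they were Srsf9 (0.933), Sub1 (0.910) and Cd74 (0.900), with Abhd1 most opposed (-0.932). For Tgfb1 they were Hbb-bs (0.942), a beta-globin gene of red blood cells, Slc27a4 (0.906) and Slc6a6 (0.902), with Tcirg1 most opposed (-0.891). These are the extremes of 9565 correlations each, and they mix division with experiment.

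Among the receptors for these cytokines, 4 of the 11 tested were lower and 0 higher in D8 relative to D3, a share near the 36.5% of all genes called, with a median of -0.39. Tgfbr1, the signalling receptor of TGF-beta, averaged 9.40 ± 0.24 in D8 and 11.02 ± 0.12 in D3 (SD, n = 3 each), a fall by 1.62 ± 0.13 (limma, adjusted p = 4.53e-07). Its partner Tgfbr2 fell by 0.76 ± 0.10 and the co-receptor Tgfbr3 fell by 1.06 ± 0.20, while Csf2ra fell by 1.48 ± 0.13 (limma, adjusted p = 4.73e-05, 0.00071 and 1.13e-06). All TGF-beta receptor genes listed were therefore lower in D8, whereas Tgfb1 itself was not called.

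The IL-2 receptor genes Il2ra and Il2rb differed by -0.14 ± 0.16 and -0.04 ± 0.15 in D8 relative to D3 (limma, adjusted p = 0.530 and 0.855). The TNF receptor genes Tnfrsf1a and Tnfrsf1b differed by -0.39 ± 0.16 and -0.51 ± 0.22, and neither was called (adjusted p = 0.0727 and 0.0871), although Tnfrsf1b passed with the experiment as a block (0.0332). Il6st, encoding gp130, Osmr and Il3ra differed by 0.05 ± 0.25, 0.32 ± 0.15 and 0.01 ± 0.12 and were not called (0.887, 0.117 and 0.977). Ltbr, Lifr, Csf2rb and Csf2rb2 were not detected, and Il2rg was not measured by a named probe.

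Cytokine genes that lie near these ones moved in both directions. Ltb, which encodes lymphotoxin beta and lies beside Lta and Tnf, was 11.03 ± 0.35 in D8 and 11.75 ± 0.15 in D3 (SD, n = 3 each), a fall by 0.72 ± 0.17 (limma, adjusted p = 0.0037). Il21, the neighbour of Il2, was not detected in D3 or D4 and was at least 6.83-fold higher in D8 than in D3 (limma, adjusted p = 4.49e-06). Il4, from the cytokine cluster that also holds Il3 and Csf2, was at least 5.82-fold higher (9.67e-08), with no D3 or D4 array detecting it. Il13 differed by 0.27 ± 0.13 (limma, adjusted p = 0.113) and Il5 was not detected. Il2 and Il21 thus had opposite calls in D8 relative to D3.

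Transcription factors known to bind cytokine promoters after T cell receptor signals had 5 lower and 2 higher of 17 tested in D8 relative to D3, with a median of -0.22, a share near the 36.5% of all genes called. Egr3 (-0.94 ± 0.15), Rel (-0.76 ± 0.21), an NF-kappaB factor needed for Il2, Egr1 (-0.58 ± 0.12) and Rela (-0.46 ± 0.11) were lower in D8 than in D3, and Batf (0.76 ± 0.13), an AP-1 family factor, was higher (limma, adjusted p = 0.00022, 0.011, 0.00187, 0.00414 and 0.000329). With the experiment as a block 7 were lower, with Egr2 (-0.32) and Fos (-0.54) added (limma, adjusted p = 0.0192 and 0.0335). Among 7 repressors of Il2, Ikzf3, encoding Aiolos, was higher (1.05 ± 0.16) and Zeb1 (-0.69 ± 0.11) and Ikzf2 (-0.62 ± 0.15) were lower (limma, adjusted p = 0.000128, 0.000288 and 0.00559), with a median of -0.10 and the same 36.5% called over all genes. The repressor Tob1 (-0.44) was lower with the experiment as a block (limma, adjusted p = 0.00460).

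Proteins that bind AU-rich or stem-loop elements in cytokine mRNAs, and mostly shorten their life, had 5 of 12 genes lower and 0 higher in D8 than in D3, with a median of -0.27, where 18.9% of all genes were lower and 17.6% higher. They were Zfp36l1 (-0.83 ± 0.11), Rc3h2 (-0.67 ± 0.10), encoding Roquin-2, Zc3h12d (-0.64 ± 0.11), Zc3h12a (-0.55 ± 0.20), encoding Regnase-1, and Tia1 (-0.38 ± 0.13), with limma adjusted p-values of 5.61e-05, 0.000128, 0.000578, 0.0428 and 0.0394. With the experiment as a block Hnrnpd (0.38) was higher (limma, adjusted p = 0.0330). No test set the lists against each other or against the cytokines. Without experiment 2, 4 receptors, 3 promoter-binding factors and 3 mRNA-binding genes were lower in D8 than in D3, and 0, 1 and 0 were higher, where 12.2% of all genes were lower and 11.7% higher. Ltb was then no longer called.

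**Figure D5:**
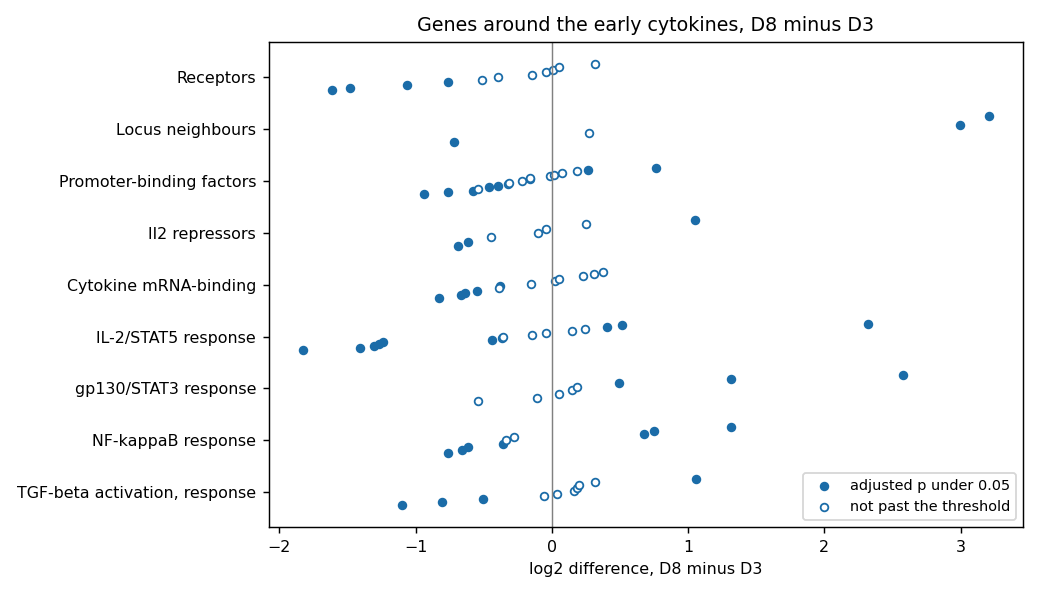
Log2 difference of D8 minus D3 (horizontal axis) for each tested gene of 9 lists around the early cytokines, from fits over 12 arrays, in which 18.9% of all genes were lower and 17.6% higher. Filled points have a limma adjusted p under 0.05. The receptors and the proteins that bind cytokine mRNA have filled points left of 0 only, and the gp130 and STAT3 response has filled points right of 0 only.

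Genes known to respond to IL-2 through STAT5 split, with 6 lower and 3 higher of 15 tested in D8 relative to D3 and a median of -0.36, in a list that includes Lta and Osm. Over all genes 18.9% were lower and 17.6% higher. The activation marker Cd69 (-1.83 ± 0.15), the costimulatory receptor gene Tnfrsf9 (-1.30 ± 0.13) and the survival gene Bcl2 (-1.27 ± 0.12) were lower, while the feedback inhibitor Socs2, not detected in D3, was at least 4.24-fold higher (limma, adjusted p = 6.79e-07, 3.92e-06, 2.48e-06 and 1.85e-06). Genes known to respond to gp130 and STAT3 signals had 3 higher and 0 lower of 8, with a median of 0.16, a share near the 36.5% of all genes called, and 1 lower (Fos) with the experiment as a block. Socs3, which inhibits gp130, was 10.38 ± 0.08 in D8 and 7.81 ± 0.49 in D3 (SD, n = 3 each), a rise of 2.58 ± 0.24 (limma, adjusted p = 1.61e-06). Bcl3 (1.31 ± 0.16) and Cebpb (0.49 ± 0.10) also rose (adjusted p = 1.9e-05 and 0.00188).

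Genes known to respond to TNF and lymphotoxin through NF-kappaB moved both ways, 4 lower and 3 higher of 9 tested, with a median of -0.34, where 18.9% of all genes were lower and 17.6% higher. The feedback gene Tnfaip3 (-0.76 ± 0.15) and Relb (-0.66 ± 0.11) fell and Icam1 (0.75 ± 0.15), Tnfaip8 (0.68 ± 0.12) and Bcl3, shared with the list above, rose (limma, adjusted p = 0.00133, 0.000383, 0.0014, 0.000679 and 1.9e-05). With the experiment as a block Traf1 (-0.34) was lower too (limma, adjusted p = 0.0325), and without experiment 2, 2 were lower and 3 higher. Of 10 tested genes that activate or respond to TGF-beta, 1 was higher and 3 were lower, with a median of 0.10, a share near the 36.5% of all genes. Furin, a protease that processes the TGF-beta precursor, rose by 1.06 ± 0.12, and the repressors of TGF-beta signals Tgif1 (-1.10 ± 0.15), Skil (-0.81 ± 0.15) and Ski (-0.51 ± 0.11) fell (limma, adjusted p = 1.59e-05, 5.07e-05, 0.000669 and 0.00255).

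Of 10 markers of the labelled CD4 T cells 8 were tested and detected on all arrays, among them Cd4, with 8.22 ± 0.10 in D8 and 8.13 ± 0.10 in D3 (SD, n = 3 each), and Cd3e. Cd5 was not detected and Lck had no named probe. In D8 relative to D3, 0 were higher and 3 lower, Cd3g (-0.37 ± 0.11), Cd3d (-0.35 ± 0.09) and Cd2 (-0.33 ± 0.12; limma, adjusted p = 0.0162, 0.00850 and 0.0447), where 36.5% of all genes were called. Their summed level was 15.39 to 15.42 in D8 and 15.66 to 15.72 in D3 on the log2 scale. Cells of other kinds also make several of these cytokines, so markers of other cells were read beside them.

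Of 8 myeloid markers Lyz2 and Csf1r were tested and neither was called in D8 relative to D3, with a summed level of 6.41 to 7.15 in D8 and 5.82 to 6.67 in D3, while Itgam, Cd14, Fcgr3, S100a8 and S100a9 were not detected. Of 6 dendritic cell markers 3 were tested, and Itgax, Flt3 and Xcr1 were not detected. Cd86 was lower (-3.18 ± 0.18, limma, adjusted p = 2.1e-08). Zbtb46 and Siglech differed by -0.09 ± 0.12 and -0.06 ± 0.22 and were not called (limma, adjusted p = 0.590 and 0.855). Zbtb46 was detected on all 3 arrays of D3 and of D8, and Siglech on 3 of D3 and 2 of D8. The sums of the 3 were 6.99 to 7.57 in D8 and 9.69 to 10.01 in D3. Of 10 B cell markers 4 were tested, with 2 higher and 1 lower, where 17.6% of all genes were higher and 18.9% lower. Their sums were 7.80 to 8.36 in D8 and 8.31 to 9.05 in D3. Cd72 was the brightest of the 4 in D3, at 7.99 against 5.83 in D8, so the sum moved with Cd72 and not with the 2 that were higher. Cd22, not detected in D3, was at least 3.01-fold higher in D8 and H2-Ab1 was higher by 1.30 ± 0.20, while Cd72 fell by 2.15 ± 0.27 (limma, adjusted p = 0.000621, 0.00017 and 2.83e-05). Ms4a1, Pax5 and Blnk, which define B cells, were not detected. Cd79b, the other B cell marker tested, was detected on all 3 arrays of D3 and of D8. It differed by -0.26 ± 0.29 and was not called (limma, adjusted p = 0.521).

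Of 6 mast cell and basophil markers only Kit was tested and was higher in D8 (1.42 ± 0.34, limma, adjusted p = 0.00482), with sums of 6.34 to 7.98 in D8 and 5.40 to 6.15 in D3, and Mcpt8, Cpa3, Fcer1a, Ms4a2 and Gata2 were not detected. Of 5 NK cell markers only Klrd1 was tested and was higher (1.37 ± 0.25, limma, adjusted p = 0.000722), with levels of 6.54 to 7.39 in D8 and 5.26 to 5.78 in D3. The other NK cell markers, Ncr1, Klrb1c, Klra4 and Klra8, were not detected. Cd8b1 was detected at 11.17 to 11.48 in D8 and 11.35 to 11.92 in D3 and was not called, but was called lower with the experiment as a block (limma, adjusted p = 0.00771), and Cd8a was not detected. Of 4 plasma cell markers 2 were tested, with Xbp1 higher (0.79 ± 0.13) and Derl3, not detected in D8, at least 1.72-fold lower (limma, adjusted p = 0.000344 and 3.93e-06), and sums of 10.35 to 10.58 in D8 and 9.51 to 9.93 in D3. Sdc1 and Jchain were not detected. Over all genes 17.6% were higher and 18.9% lower. Of 4 erythroid markers and 5 stromal markers, Hba-a1 and Pecam1 were tested and neither was called, with levels of 4.38 to 5.44 and 8.61 to 9.01 in D8 and of 4.27 to 6.43 and 9.05 to 9.30 in D3. Pecam1 was called lower with the experiment as a block (limma, adjusted p = 0.00746). Without experiment 2, 0 of the T cell markers were called and 1 myeloid marker was higher in D8, where 11.7% of all genes were higher and 12.2% lower. The part of other cells in the cytokine values was not tested.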

How the data were processed

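RNA of 12 sorted samples was measured on Illumina arrays. The probe intensity values deposited by the authors were read with BeadStudio 2.0, per the submitters' processing notes, on a linear scale and not normalized between arrays. A detection p-value stands beside each, per the file headers, and the deposited series matrix holds a second, background-subtracted intensity (array medians 2.74 to 2.76, rank correlation of 1 with the first on every array), whose method is not given in the sources used here. The genome build of the probes is not given in the sources used here.

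Intensities were background-corrected, quantile-normalized and log2-transformed with neqc (offset 16, negative controls inferred from the detection p-value, limma 3.58.1, R 4.3.3). Of 45281 probes, 34885 had 1 symbol, 18 several and 10378 none. Current symbols were looked up for 34807 and 0 differed. A probe was kept when 3 or more of the 12 arrays had its detection p below 0.05, and the brightest of a gene was tested (9566 genes). Division means of all arrays were fitted with lmFit and eBayes (8 residual degrees of freedom), or a slope on the times divided, and the procedure was tested on simulated data. An adjusted p for a second probe of a gene is over all detected probes with 1 symbol (14972). "At least N-fold" sets a group's mean against the lowest signal of detected probes on arrays where the probe was not detected.

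The numbers 1 to 3 mark experiments, per the labels. With each division centred on its mean, arrays sharing an experiment had correlations of 0.205 to 0.438 (18 pairs), while arrays differing in experiment and division had -0.373 to 0.0342 (36 pairs). The experiment was not a term of the model and was tried as a block.

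Alternatives were median centring, normexp without negative controls, an offset of 50, the authors' processed values with a floor of 16, other filters and probe rules, only the arrays compared, the block and leaving out each array. The 8 cytokines and all lists were chosen with earlier results of these data known. All 8 cytokines are named with every probe. Of each list up to 5 genes of largest change past the threshold in D8 against D3 are named, and all receptors and neighbouring cytokines. Genes of a list whose call changed with the block are named too, chosen after their values were seen. For each cytokine tested the 3 most correlated genes and the most opposed are named. The experiment F test, the within-experiment values, the comparison of steps and the fit without experiment 2 were added after the data were seen.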

Additional observations from a re-analysis of the deposited data

How the results depend on the processing

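Of 1092 differences of the 6 tested cytokines recomputed under an alternative, 1061 kept their side of the threshold, 10 gained a call, 21 lost one and 0 called differences changed sign. The count of cytokines called was 2 to 4 in D8 against D3 (3 as reported, 4 with the replicate block, which added Osm), and 3 in D8 against D4 and 2 in D6 against D3 under every alternative run. On the trend it was 3, and 4 with the replicate block, which added Osm (adjusted p = 0.0347). In D8 against D6 the reported 1 became 0 with median centring, 0 with the authors' processed values, 0 with no filter on detection and 0 without experiment 2, and 2 (Il2 and Lta) with only the arrays of the divisions compared and 2 with the replicate block. In D6 against D4 the reported 1 became 0 with the authors' processed values and 0 without experiment 2, and 2 (Lta and Lif) with the replicate block. In D4 against the mean of the others the reported 1 became 3 (Il2, Lta and Lif) with the replicate block and 0 without experiment 2. Leaving out single arrays gave 0 to 1, 0 to 1 and 0 to 2 in these 3 comparisons. The replicate block changed no other call of a cytokine between divisions, and its added calls on the lists stand beside them. The cause of these changes was not tested.

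Counts over all genes moved by over 1.5 times as follows. Median centring gave 1594 calls in place of 2728 in D8 against D4, 343 in place of 891 in D8 against D6, 930 in place of 1419 in D6 against D3, 162 in place of 408 in D6 against D4, and 219 in place of 566 in D4 against the mean of the others. The replicate block gave 1662 in D8 against D6, 2214 in D6 against D3, 949 in D6 against D4, 1209 in D4 against the mean of the others and 65 in place of 1 in D4 against D3, where the authors' values gave 9 and the other alternatives 0 to 2. Without experiment 2 the counts were 2278 in place of 3492 in D8 against D3, 1569 in D8 against D4, 206 in D8 against D6, 546 in D6 against D3, 115 in D6 against D4, 120 in D4 against the mean of the others and 0 in D4 against D3. Leaving out single arrays gave 370 to 1047 in D8 against D6, 938 to 1455 in D6 against D3, 215 to 465 in D6 against D4 and 281 to 726 in D4 against the mean of the others. Median centring also moved the split of calls, to 883 higher and 1515 lower in D8 against D3 (1682 and 1810 as reported), 230 and 700 in D6 against D3 (708 and 711), 70 and 92 in D6 against D4 (224 and 184) and 1033 and 1725 on the trend (1844 and 1959), and the median of all genes by -0.06 in D8 against D3.

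With 3 arrays a division, and a single probe for Il2, Tgfb1, Csf2 and Il3, small changes could not be detected. Csf2, Il3 and 3 Lif probes gave no signal above background. A slide block was not run, because the files used here do not give the slide.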
